A study of Homo sapiens with 4 samples.

Results

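Carbonic anhydrases are the genes examined here, namely CA9, CA12, CA2, CA3, CA5B, CA8, CA11 and CA13, which were taken by symbol from a table of 61806 genes. These 8 genes belong to a human family of 15 genes, and the family was chosen by the FPKM of CA9, which was lower after melatonin in both cell lines of the study. The change of CA9 was therefore known when the family was chosen, and its values are given as a description. RNA was sequenced from JJ012, a human chondrosarcoma line, and from 143B, a human osteosarcoma line, both kept detached from the culture surface. Each line gave 1 untreated library, called control, and 1 library from cells given 1 mM melatonin for 72 h. The table marks 1 library of each line with the suffix T, which was read as treated, and every direction given for melatonin rests on that reading. The lines are each a single established line, so chondrosarcoma and osteosarcoma are represented by 1 line each.

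Carbonic anhydrases are zinc enzymes that turn carbon dioxide and water into bicarbonate and a proton, and back. CA9 and CA12 sit in the plasma membrane with the catalytic domain outside the cell, where they take part in acidifying the surroundings of tumour cells and in exporting acid. CA2, CA3 and CA13 are cytosolic enzymes, and CA2 is known in bone for supplying protons to osteoclasts. CA5B works in mitochondria, where it supplies bicarbonate to carboxylases. CA8 and CA11 are carbonic anhydrase-related proteins without the enzymatic activity. CA9 is one of the best known target genes of the hypoxia-inducible factors (HIF), transcription factors that bind DNA at sites with the core ACGTG or GCGTG.

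Library totals ranged from 15889564 to 19218343 counts, so that 3 counts, taken as the floor of detection, corresponded to between 0.156 and 0.189 CPM, the counts scaled to the library total. There was 1 library per condition, so no difference could be set against the spread between cultures and no p-value is given. Levels are given in FPKM, which are CPM per kilobase of exonic length and can be compared between genes. Log2 fold changes compare log2(FPKM + 1) between 2 libraries, a scale on which changes at low FPKM appear smaller than they are. Genes that reached 1 FPKM in either library of a comparison were tested, and a gene was called higher or lower at an absolute value of at least 0.58. The ratio of CPM is given with its exact (Clopper-Pearson) 95% interval, which covers counting error only. The share of counts from the mitochondrial genome was 6.78% and 4.35% in control and melatonin-treated JJ012 and 1.63% and 2.46% in 143B, and its part in the results was not tested. Of the defining cartilage markers, ACAN and COL2A1 were at most 0.02 FPKM in JJ012. SOX9 was at 15.06 FPKM in the JJ012 control and 15.48 FPKM in the 143B control, and COL11A1 at 22.92 and 0 FPKM. Of the osteoblast markers, SP7 and IBSP were at most 0.02 FPKM in 143B. RUNX2 was at 4.28 FPKM in the 143B control and 3.02 FPKM in the JJ012 control. SPP1 was at 0.4 FPKM in the 143B control and 79.39 FPKM in the JJ012 control, most of the osteoblast sum of JJ012 given next. In control and melatonin-treated JJ012, 10 cartilage markers summed to 39.75 and 9.98 FPKM and 8 osteoblast markers to 107.22 and 68.34 FPKM, and in 143B to 16.92 and 13.41 FPKM and to 6.97 and 5.08 FPKM. Of 6 epithelial markers 2 or 3 reached 1 FPKM in each library, with sums from 13.56 to 46.89 FPKM, and of 8 leukocyte, erythroid and endothelial markers 1 or 2 did, with sums from 3.18 to 5.98 FPKM and HBB at 0. The part of these markers in the results was not tested. In bulk RNA, fewer cells that express a gene and less of its RNA per cell cannot be told apart.

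RefSeq promoters (GRCh38.p14) were matched for CA9, CA12 and CA5B. The 250 bases before the start of CA9 and of CA12, the most abundant members in the JJ012 control, are shown 5′ to 3′ on the strand of the gene, because CA9 is known for its HIF site close to the start. Capitals mark ACGTG or GCGTG read on either strand, so that a match on the opposite strand appears as CACGT or CACGC.
CA9, chr9:35673678-35673927, plus strand: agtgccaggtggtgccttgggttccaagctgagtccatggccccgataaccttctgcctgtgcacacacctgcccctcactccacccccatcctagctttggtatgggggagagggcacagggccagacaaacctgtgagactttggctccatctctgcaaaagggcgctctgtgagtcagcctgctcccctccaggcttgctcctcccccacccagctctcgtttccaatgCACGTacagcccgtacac
CA12, chr15:63381847-63382096, minus strand: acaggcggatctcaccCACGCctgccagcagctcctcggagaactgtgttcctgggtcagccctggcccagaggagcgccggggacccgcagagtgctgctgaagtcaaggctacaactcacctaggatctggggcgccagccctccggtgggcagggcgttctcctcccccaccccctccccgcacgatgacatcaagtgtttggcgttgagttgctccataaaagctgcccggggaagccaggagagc
The CA9 promoter held ACGTG once, on the strand opposite to the gene, between 18 and 14 bases before the start. The CA12 promoter held GCGTG once, also on the opposite strand, between 234 and 230 bases before the start, and did not hold ACGTG in this window. The CA5B promoter, not shown, also held GCGTG, so all 3 matched members held ACGTG or GCGTG. Of these 3 members, CA9 and CA12 were called lower in JJ012 and CA5B was not, and the part of the cores in this was not tested. Among 35116 RefSeq promoters of 27305 genes, 18.5% held ACGTG and 32.2% held GCGTG in the same window. Among 62 promoters of the 38 matched genes of the hypoxia lists described further on, 51.6% held ACGTG and 45.2% held GCGTG. These matches describe the letters only and do not show binding.

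By the authors' positions in hg38, CA9 (ENSG00000107159) lies on the plus strand of chromosome 9 from 35673928 to 35681159, and its first 1939 bases overlap ARHGEF39 on the other strand. CA12 (ENSG00000074410) lies on the minus strand of chromosome 15 from 63321378 to 63381846 and overlaps no other gene of the table. CA11 (ENSG00000063180) lies on chromosome 19 from 48637946 to 48646187 and overlaps SEC1P on the other strand. CA5B (ENSG00000169239) lies on chromosome X from 15688830 to 15788411, and 14895 of its bases overlap CA5BP1, a pseudogene copy of it on the same strand. CA13 (85220587 to 85284073), CA3 (85373436 to 85449040) and CA2 (85463968 to 85481493) are neighbours on the plus strand of chromosome 8, and CA8 (60185412 to 60281400) lies on the minus strand of the same chromosome. Whether the counting used the strand is not given in the sources used here, so reads of overlapping genes on opposite strands cannot be told apart. SEC1P had at most 15 counts in a library.

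CA9 shared the highest level of the carbonic anhydrases in the JJ012 control with CA12, their counting intervals overlapping, and ranked below CA12 and CA11 after melatonin. CA9 stood at 166.0 FPKM (5098 counts) in the JJ012 control, 14.54 FPKM (375 counts) in melatonin-treated JJ012, 5.55 FPKM (141 counts) in the 143B control and 1.82 FPKM (50 counts) in melatonin-treated 143B. In each line the melatonin library was the lower one, and melatonin-treated JJ012 still held more CA9 RNA than either 143B library. By CPM, CA9 was 11.4-fold lower with melatonin in JJ012 (95% interval, 10.3 to 12.7) and 3.05-fold lower in 143B (2.19 to 4.30). The log2 fold changes from FPKM were -3.43 in JJ012 and -1.22 in 143B. In JJ012, 7 of the 15794 tested genes had a lower log2 fold change than CA9, and in 143B 206 of the 14135 tested genes did. The ratio in JJ012 was lower than that in 143B by more than counting error, with a log2 difference (JJ012 minus 143B) of -1.91 and an interval from -2.41 to -1.39. In the JJ012 control, 152 genes of the table had more FPKM than CA9, and 3253 genes did after melatonin. In 143B, 6118 genes had more FPKM than CA9 in the control and 10769 genes after melatonin. ARHGEF39, which overlaps the start of CA9, had 144 and 57 counts in JJ012, far fewer than CA9, but 93 and 75 counts in 143B, close to the 141 and 50 counts of CA9, so the 143B values of CA9 are the less certain ones.

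CA12, the other cell-surface enzyme with high levels, fell in JJ012 and did not reach the threshold in 143B. CA12 was at 160.8 FPKM (21626 counts) in the JJ012 control and 78.34 FPKM (8850 counts) after melatonin. It was at 86.72 FPKM (9643 counts) in the 143B control and 106.45 FPKM (12787 counts) after melatonin. The melatonin library was thus the lower one in JJ012 and the higher one in 143B. By CPM, CA12 was 2.05-fold lower in JJ012 (95% interval, 2.00 to 2.10), while the CPM ratio in 143B was 1.23 (1.20 to 1.26). The log2 fold changes from FPKM were -1.03 in JJ012 and 0.29 in 143B. The log2 ratio of the lines differed by -1.33 (JJ012 minus 143B), with a counting interval from -1.39 to -1.28.

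CA11, one of the related proteins without enzymatic activity, was the other member that fell in JJ012. CA11 was at 64.31 FPKM (2405 counts) in the JJ012 control and 23.94 FPKM (752 counts) after melatonin, 2.69-fold lower by CPM (95% interval, 2.47 to 2.92). In 143B it was at 1.26 FPKM (39 counts) in the control and 1.05 FPKM (35 counts) after melatonin, and the interval of its log2 CPM ratio, -0.97 to 0.43, included 0. Both JJ012 libraries lay far above both 143B libraries. The log2 ratio was lower in JJ012 than in 143B by 1.16, a difference of -1.16 with an interval from -1.87 to -0.45. CA8, the related protein known to bind the inositol trisphosphate receptor ITPR1, stayed under 1 FPKM in every library. Its counts were 9 in control and 2 in melatonin-treated JJ012, and 59 and 54 in 143B. The intervals of its log2 CPM ratio included 0 in both lines, and melatonin-treated JJ012 was below the floor of 3 counts.

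**Figure D1:**
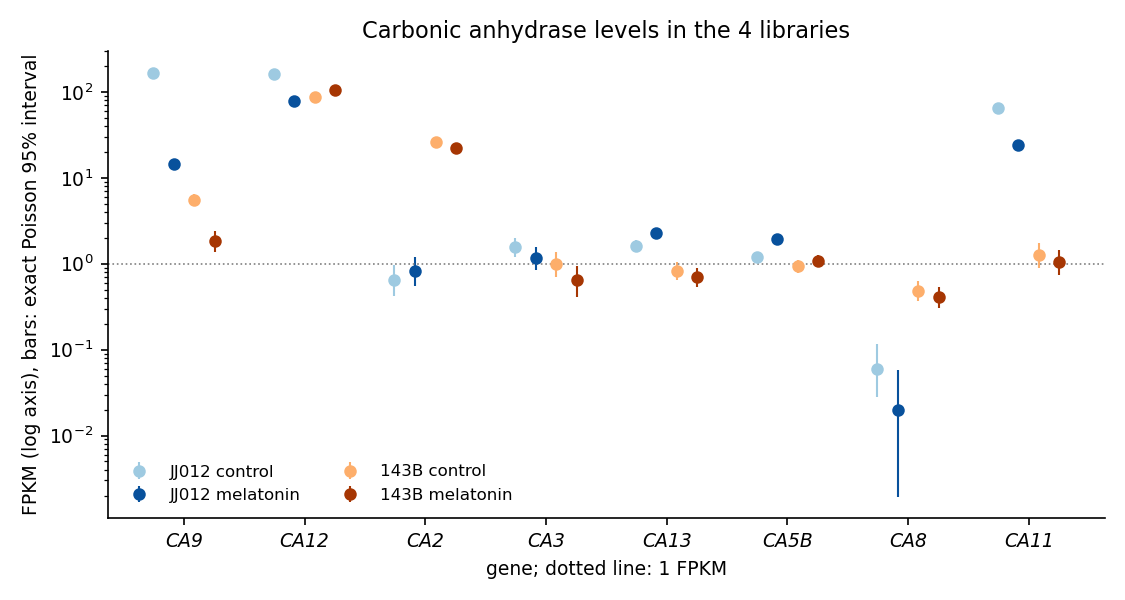
FPKM on a log axis (vertical) for each carbonic anhydrase (horizontal) in the 4 libraries, with exact Poisson 95% intervals as bars and 1 FPKM as a dotted line. CA9 ran from 166.0 FPKM in the JJ012 control to 1.82 FPKM in melatonin-treated 143B, while CA12 stayed at 78.34 FPKM or more in all 4 libraries.

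Among the cytosolic enzymes, CA2 was abundant in 143B and low in JJ012. CA2 was at 25.93 FPKM (827 counts) in the 143B control and 22.03 FPKM (759 counts) after melatonin, against 0.65 FPKM (25 counts) and 0.83 FPKM (27 counts) in JJ012. Its log2 fold change in 143B was -0.23, under the threshold, although the interval of its log2 CPM ratio, -0.38 to -0.09, lay below 0. In JJ012 the interval was -0.48 to 1.21. CA13 was at 1.62 FPKM (174 counts) in the JJ012 control and 2.27 FPKM (205 counts) after melatonin, and at 0.83 FPKM (74 counts) and 0.70 FPKM (67 counts) in 143B. Its CPM ratio in JJ012 was 1.40, with an interval from 1.14 to 1.73, and its log2 fold change of 0.32 was under the threshold. CA3 was at 1.55 and 1.17 FPKM (68 and 43 counts) in control and melatonin-treated JJ012 and at 0.99 and 0.64 FPKM (36 and 25 counts) in 143B. The counting intervals of CA3 included 0 in both lines.

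CA5B, the mitochondrial enzyme, was at 1.20 FPKM (197 counts) in the JJ012 control and 1.92 FPKM (264 counts) after melatonin. In 143B it was at 0.93 FPKM (126 counts) in the control and 1.07 FPKM (157 counts) after melatonin. The melatonin library was the higher one in both lines, and in JJ012 the CPM ratio was 1.60, with an interval from 1.32 to 1.93. The log2 fold changes, 0.41 in JJ012 and 0.10 in 143B, were under the threshold. Its pseudogene copy CA5BP1 had 205 and 124 counts in JJ012 and 36 and 42 counts in 143B, so how reads were divided between the copies makes the values of CA5B uncertain. The log2 CPM ratios of CA5B and CA13 were higher in JJ012 than in 143B by 0.47 (interval, 0.02 to 0.91) and 0.74 (0.16 to 1.33). For CA2, CA3 and CA8 the interval of this difference included 0.

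Of the 8 members, 6 passed the filter of 1 FPKM in JJ012, of which 3 were called lower (CA9, CA12 and CA11), 0 higher and 3 neither. Over all tested genes of JJ012, 38.2% were called, 18.6% lower and 19.6% higher. In 143B, 5 members passed the filter, of which 1 was called lower (CA9), 0 higher and 4 neither, where 12.7% of all tested genes were called, 6.65% lower and 6.09% higher. The median log2 fold change over the tested members was -0.63 for JJ012 and -0.14 for 143B, beside 0.0084 and 0.026 over all tested genes. Because the fall of CA9 was used to choose the family, these counts describe the members and support nothing further. Shorter genes had lower log2 fold changes in JJ012, with a Spearman correlation with exonic length of 0.40 over 11534 protein-coding genes that share the same 2 libraries and are no replicates. CA9 (1598 bases) and CA11 (1946 bases) are short, and with a running median over exonic length subtracted their log2 fold changes in JJ012 were -3.08 and -1.05. CA12, with 6998 bases, had -1.18 with the same subtraction. CA5B (8522 bases) and CA13 (5597 bases) went from 0.41 and 0.32 to 0.17 and 0.24 in JJ012. In 143B, CA5B had 0.09 with the subtraction, so its difference between the lines was smaller on that scale.

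**Figure D2:**
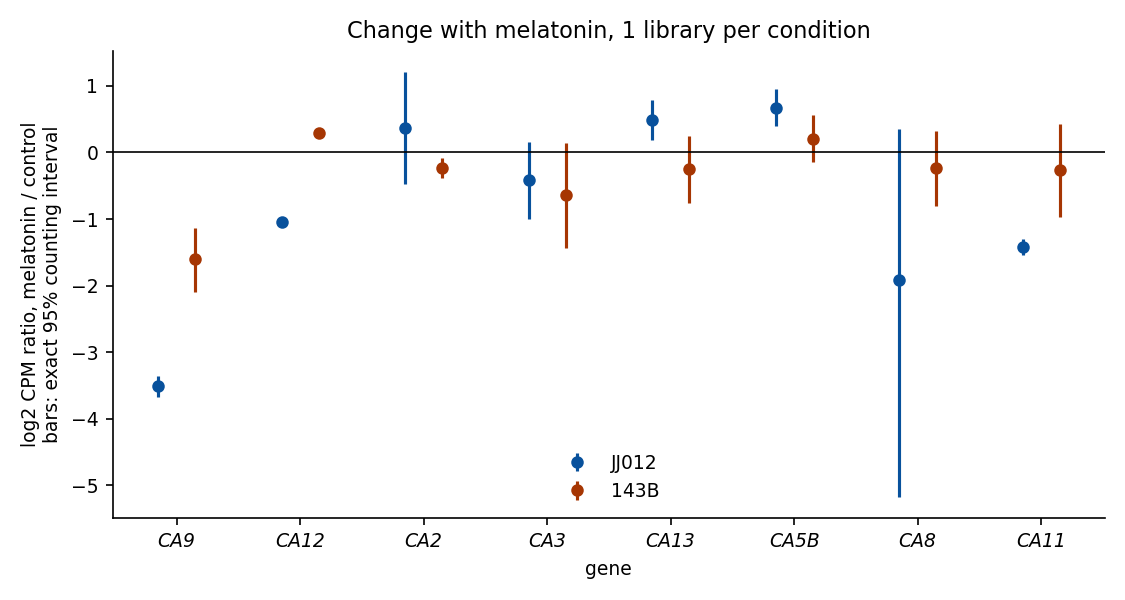
Log2 CPM ratio of melatonin to control (vertical) for each member (horizontal) in JJ012 and 143B, with exact 95% counting intervals as bars and 1 library per condition. CA9 was below 0 in both lines, CA12 was below 0 in JJ012 (-1.04) and above 0 in 143B (0.30), and the bar of CA8 in JJ012 is wide because it rests on 9 and 2 counts.

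**Figure D3:**
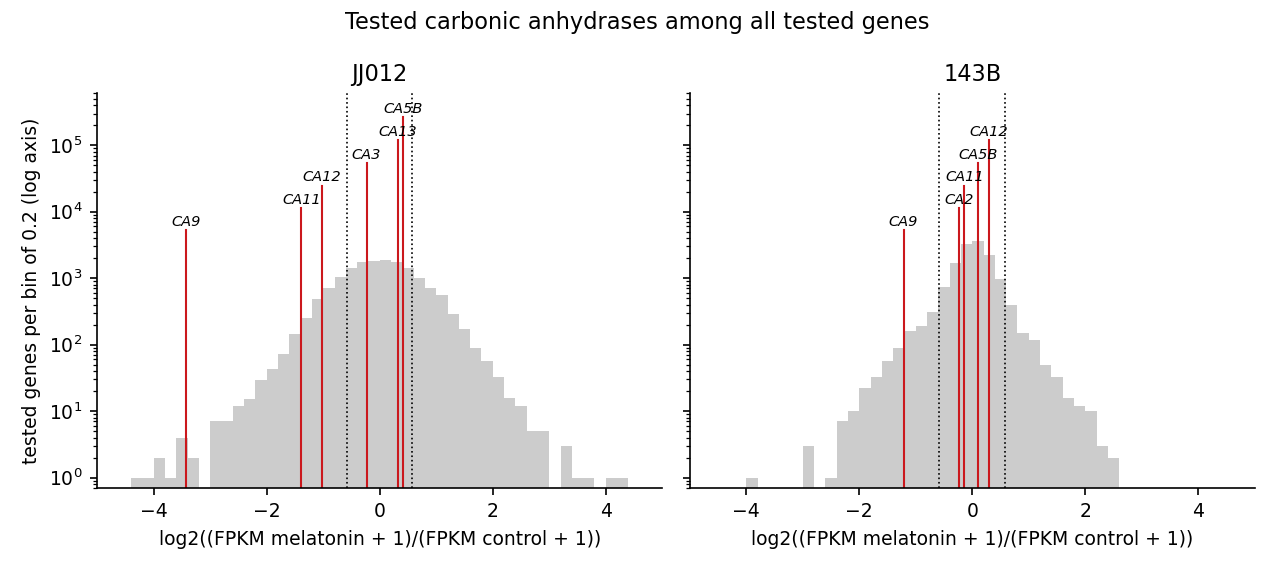
Number of tested genes (vertical, log axis) by log2 fold change from FPKM (horizontal, bins of 0.2) in JJ012 and in 143B, with the tested carbonic anhydrases as red lines and the thresholds of -0.58 and 0.58 as dotted lines. CA9 lies in the far lower tail in JJ012 at -3.43 and nearer to the other genes in 143B at -1.22.

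The order of the members by FPKM differed between control and melatonin-treated JJ012 beyond counting error, while the first 3 places in 143B were the same. In the JJ012 control, CA9 and CA12 had overlapping counting intervals at the top, followed by CA11, and CA13, CA3 and CA5B lay close together, each overlapping the next. After melatonin the order in JJ012 was CA12, CA11 and CA9, each apart from the next. In 143B the order of the first 3 was CA12, CA2 and CA9 in both libraries, each apart from the next. The intervals of CA11, CA3, CA5B and CA13 overlapped from neighbour to neighbour in both 143B libraries.

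The summed level of the 15 family genes was 398.2 FPKM in the JJ012 control and 123.9 FPKM after melatonin, and 124.5 FPKM and 136.2 FPKM in 143B. CA9 made up 41.7% of that sum in the JJ012 control and 11.7% after melatonin. In 143B its share was 4.46% in the control and 1.34% after melatonin. CA12 made up 40.4% and 63.2% in JJ012 and 69.7% and 78.2% in 143B. CA9 and CA12 together summed to 326.8 FPKM in control and 92.88 FPKM in melatonin-treated JJ012, and to 92.27 and 108.3 FPKM in 143B. The cytosolic genes of the family held 1.08% of the sum in the JJ012 control and 22.3% in the 143B control, most of it CA2.

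**Figure D4:**
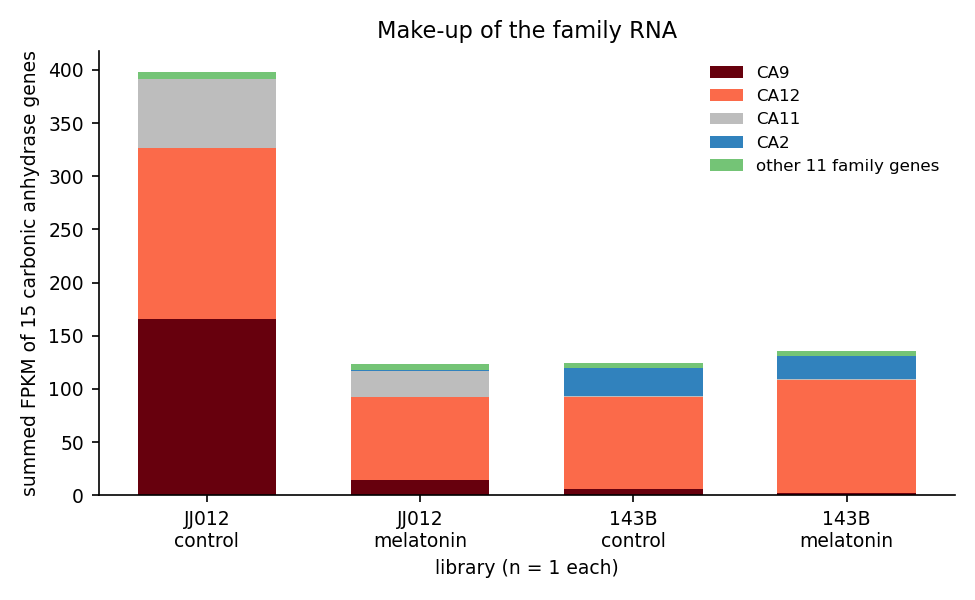
Summed FPKM of the 15 family genes (vertical) in each library (horizontal, n = 1 each), stacked by CA9, CA12, CA11, CA2 and the other 11 genes. The JJ012 control stands at 398.2 FPKM and the other libraries between 123.9 and 136.2 FPKM.

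The other 7 family genes were low. CA10 had 0 counts in every library. CA14, another cell-surface enzyme, was at 0.81 and 0.55 FPKM in JJ012 and 1.72 and 1.98 FPKM in 143B, and its counting intervals included 0 in both lines. CA4, a lipid-anchored surface enzyme, had 21 counts in the JJ012 control and 0 in each of the other libraries. By CPM, the exact 95% interval put CA4 at least 4.37-fold lower after melatonin in JJ012. Against the floor of 3 counts in the library the value was 5.88-fold. CA7, a cytosolic enzyme, had 17 and 6 counts in JJ012 and 0 counts in 143B. CA1, CA5A and CA6 had at most 8 counts in any library.

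The untreated lines differed most in CA9, CA11 and CA2. By CPM, CA9 was 29.9-fold higher in the JJ012 control than in the 143B control (95% interval, 25.3 to 35.6), and CA11 was 51.0-fold higher (37.2 to 71.9). CA2 was 40.0-fold lower in JJ012 (26.9 to 62.2). Of the 7 members tested in this comparison, 3 were called higher in JJ012 (CA9, CA12 and CA11), 1 lower (CA2) and 3 neither, while 68.7% of all tested genes were called, 41.3% higher and 27.4% lower. The log2 fold change of CA12 was 0.88, beside a median of 0.29 over all tested genes, and with FPKM rescaled to TPM it was 0.51 and no longer called. CA14 was also called lower in JJ012, with a log2 fold change of -0.59. CA8 was under 1 FPKM in both controls, with 9 counts in JJ012 and 59 in 143B, a CPM 7.93-fold lower in JJ012 (3.91 to 18.2). These control libraries are the same ones used in the comparisons with melatonin.

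Genes known to be induced by hypoxia were described next, because CA9 is a classical member of that response. The lists hold well-known genes and were written with earlier results of these data known. In JJ012, 12 of 23 tested hypoxia-induced genes outside glycolysis fell and 3 rose, where 18.6% of all tested genes were called lower and 19.6% higher. With TPM 10 fell and 5 rose, where 15.7% of all tested genes were called lower and 34.6% higher. The median log2 fold change of the list was -0.61. The largest falls were those of LOX, a collagen crosslinking enzyme, from 602.9 to 80.21 FPKM, PLOD2, a collagen lysyl hydroxylase, from 143.3 to 45.78 FPKM, and P4HA1, a collagen prolyl hydroxylase, from 382.7 to 143.2 FPKM. The largest rises were those of STC2, a secreted glycoprotein, from 3.24 to 8.63 FPKM, KDM3A, a histone demethylase, with a log2 fold change of 1.00, and BHLHE40, a transcriptional repressor, from 80.82 to 129.2 FPKM. In 143B, 0 of 24 tested genes of the list fell and 1 rose, beside 6.65% and 6.09% of all tested genes, and the median was -0.14.

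Among the 20 hypoxia-induced glycolysis genes of JJ012, 11 fell and 3 rose, beside the same 18.6% and 19.6% of all tested genes, and with TPM 8 fell and 5 rose. The median of this list was -0.63. GAPDH fell from 2582 to 826.2 FPKM, ALDOC from 174.9 to 57.77 FPKM and PGAM1 from 170.6 to 65.94 FPKM, all enzymes of the lower or middle part of glycolysis. The glucose transporter SLC2A3 rose from 38.71 to 114.2 FPKM, the hexokinase HK2 from 83.23 to 207.8 FPKM and PFKFB3, which makes an activator of phosphofructokinase, from 17.80 to 44.97 FPKM. In 143B, 2 of the 20 fell and 0 rose, near the 6.65% and 6.09% of all tested genes, with a median of -0.20. These were PDK1, which restrains pyruvate entry into mitochondria, from 28.13 to 13.41 FPKM, and ALDOC, from 19.76 to 11.64 FPKM.

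The regulators of the pathway were described as a list of their own. Of 10 tested in JJ012, 5 rose, 1 fell and 4 did neither, where 19.6% of all tested genes were called higher, and with TPM 8 rose and 1 fell, where 34.6% were. With the length trend removed 4 rose, and the median of the list was 0.57, or 0.36 with that trend removed. HIF1A rose from 77.77 to 192.4 FPKM and EPAS1, which encodes HIF-2α, from 9.11 to 27.84 FPKM. The coactivators EP300 and CREBBP rose from 5.11 to 12.58 FPKM and from 3.34 to 7.64 FPKM, and HIF1AN, an inhibitor of HIF transactivation, had a log2 fold change of 0.60. CITED2, which competes with HIF for these coactivators, fell from 91.54 to 41.26 FPKM. The partner ARNT had a log2 fold change of 0.55, VHL, which marks HIF for destruction, 0.37, and the oxygen-sensing prolyl hydroxylases EGLN1 and EGLN2 0.16 and 0.24, all under the threshold. EGLN3, itself induced by HIF, was at 0.95 and 0.10 FPKM in JJ012, under the filter, and at 2.21 and 1.40 FPKM in 143B. In 143B, 0 of 12 tested regulators rose and 0 fell, near the 6.09% and 6.65% of all tested genes. HIF1A was there at 44.49 and 43.31 FPKM and EPAS1 at 64.01 and 60.74 FPKM. RNA levels do not show how much HIF protein the cells held, which was not measured here.

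**Figure D5:**
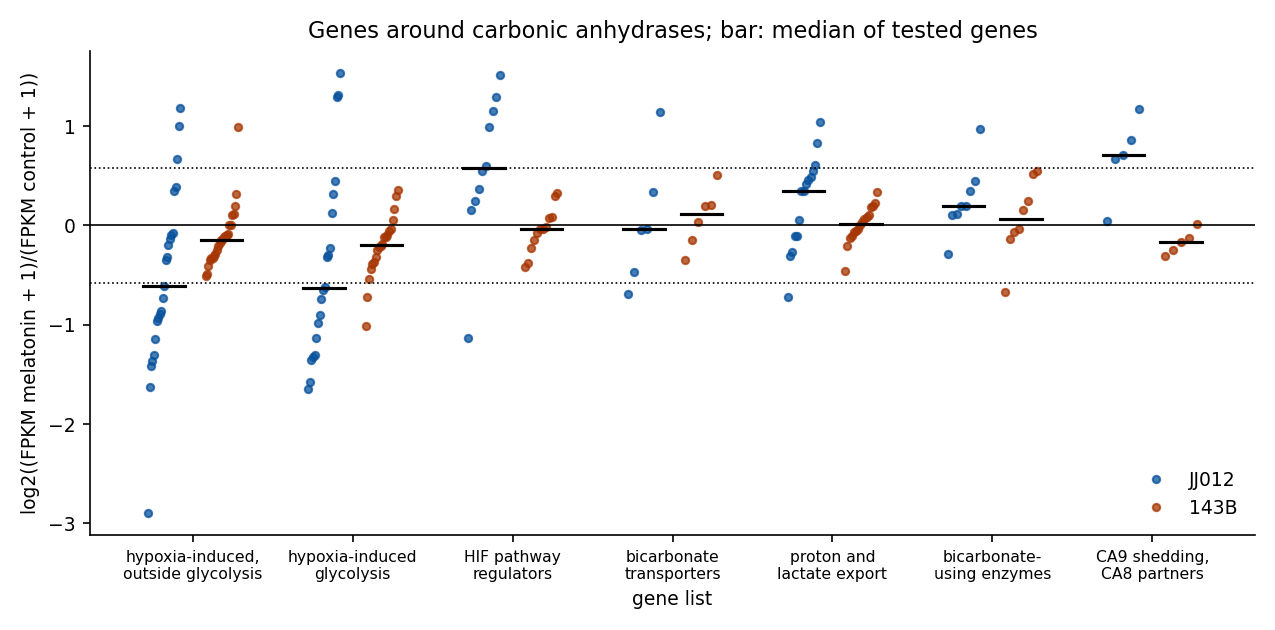
Log2 fold change from FPKM (vertical) of each tested gene of 7 lists (horizontal) in JJ012 and in 143B, with medians as black bars and the thresholds of -0.58 and 0.58 as dotted lines. In JJ012 the medians of both hypoxia lists lie at -0.61 and -0.63 and that of the HIF regulators at 0.57, while in 143B the medians of all 7 lists lie between -0.20 and 0.11.

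Transporters and enzymes that handle bicarbonate and acid work beside the carbonic anhydrases. Counts of these transporters and enzymes are read against the shares of all tested genes. In JJ012, 19.6% of all tested genes were called higher and 18.6% lower, and in 143B 6.09% and 6.65%. Of 6 tested bicarbonate transporters, SLC4A7, a sodium-bicarbonate importer, rose in JJ012 from 9.82 to 22.93 FPKM and SLC4A2, a chloride-bicarbonate exchanger, fell from 11.45 to 6.74 FPKM, and 0 of 6 were called in 143B. Of 15 tested genes for the export of protons and lactate, 3 rose and 1 fell in JJ012, but 9 rose and 0 fell with TPM, where 34.6% of all tested genes were called higher, and 1 rose and 1 fell with the length trend removed. The lactate transporter SLC16A1 rose from 9.17 to 19.96 FPKM, its relative SLC16A7 from 0.28 to 1.27 FPKM, and the proton pump subunit ATP6V1B2 had a log2 fold change of 0.61. BSG, the chaperone of lactate transporters, fell from 283.6 to 171.8 FPKM. With TPM, 2 bicarbonate transporters rose and 0 fell, so the falls of SLC4A2 and BSG were not called on that scale. In 143B, 0 of 16 tested genes for the export of protons and lactate were called. SLC16A7 was under the filter there, at 0.73 and 0.29 FPKM (160 and 68 counts). Its CPM ratio in 143B was 0.39, below 1 by more than counting error and opposite to JJ012.

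Among 8 tested enzymes that use bicarbonate, ACACA, the first enzyme of fatty acid synthesis, rose in JJ012 from 4.35 to 9.46 FPKM, and pyruvate carboxylase, PC, fell in 143B from 8.28 to 4.83 FPKM. PC had 18.75 and 21.60 FPKM in JJ012. ADAM17, a protease known to shed CA9 from the cell surface, rose in JJ012 from 6.17 to 10.73 FPKM, while ADAM10 was at 11.15 and 11.55 FPKM. The 3 inositol trisphosphate receptor genes rose in JJ012, with log2 fold changes of 0.86 for ITPR1, the partner of CA8, 0.67 for ITPR2 and 1.17 for ITPR3. With the length trend removed, 1 of these 5 genes rose instead of 4. In 143B, 0 of the 5 were called, where 12.7% of all tested genes were.

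The genes whose pattern over the 4 libraries was most like that of CA9 were sought among the 8528 protein-coding genes that reached 5 FPKM in any of the libraries. Likeness was the Euclidean distance between log2(FPKM + 1) values after the mean of each gene had been subtracted. The nearest 5 were MMP7, a matrix metalloproteinase, at a distance of 1.00, COL11A1, a fibrillar collagen chain, at 1.11, CADM3, a cell adhesion protein, at 1.26, and PRTN3 and ELANE, neutrophil-type serine proteases, at 1.26 and 1.27. MMP7 went from 57.44 to 4.51 FPKM in JJ012 and had 2 counts and 1 count in 143B. COL11A1 and CADM3 overlap other genes of the table. COL11A1 went from 22.92 to 3.24 FPKM in JJ012 and had 0 counts in 143B. All 5 were high in the JJ012 control and at most 0.34 FPKM in 143B, so the likeness rests on the JJ012 libraries, and for the change of CA9 in 143B none of them gave a comparable value.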

How the data were processed

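For every gene and library, the deposited table gives the raw count and the FPKM the authors derived from it. Recomputing FPKM from the counts, the deposited exonic length and the library total gave the same values within rounding. RNA was poly(A)-selected and sequenced as paired ends. The submitters' processing notes name cutadapt 1.9.1, HISAT2 2.2.1, HTSeq 0.6.1, DESeq2 and hg38, with no role given. Columns were matched to the labels by cell line, and the suffix T was read as melatonin-treated, which no label states. The members and lists were chosen with earlier results of these data known.

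Each gene's log2 fold change used FPKM with a pseudocount of 1, as planned. The ratio of CPM with its exact 95% interval was added, since counts were present. The difference between lines used the exact conditional interval of the odds ratio. The FDR criterion of the study and edgeR's quasi-likelihood test need replicates and were not applied. edgeR 4.0.16 gave TMM factors only.

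The named genes are all members, the other family genes and most of the HIF regulators. Per list and line, they include the called genes with the most extreme log2 fold changes, up to 3 in each direction. The 5 genes most like CA9 follow a distance rule, with gene types from GENCODE 29. ITPR2, ADAM10, GLUD1, GLUL, CPS1, SHLD2 and GLUD1P3 fall outside these rules and were named after their values were seen. The values of 1 gene of the lists are not reported here. The alternatives were no filter on FPKM, a minimum of 5 FPKM, a pseudocount of 0.1 FPKM, centring on the median gene, TPM, CPM, TMM, median-of-ratios size factors, removal of the length trend and a threshold of 1. The procedures were tested on simulated counts. Python 3.11.15, numpy 2.4.6, scipy 1.17.1, pandas 2.3.3, matplotlib 3.10.9 and R 4.3.3 were used.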

Additional observations from a re-analysis of the deposited data

Results flagged for a closer look

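CA12 moved in opposite directions in the cell lines. Its log2 CPM ratio of melatonin to control was -1.04 in JJ012 and 0.30 in 143B, and neither counting interval included 0. With 1 library per condition the difference was not tested against the spread between cultures, and the value in 143B was under the fold threshold.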

How the results depend on the processing

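In JJ012, the 3 members called lower and, in 143B, the 1 called lower were again 3 and 1 under all 10 alternatives. The number called higher in JJ012 moved from 0 to 1 with a pseudocount of 0.1 FPKM, to 1 with CPM and to 2 with TPM, where CA5B and CA13 had 0.81 and 0.67. Between the untreated lines it moved from 3 to 5 with a pseudocount of 0.1 FPKM, to 4 with CPM, to 2 with TPM and to 2 with a threshold of 1. Of the single members' values, under the 7 alternatives that can change a log2 fold change, 10 of 42 in JJ012, 1 of 35 in 143B and 14 of 49 between the controls moved by more than their counting error, and 0 of those called changed sign. CA9 ranged from -3.50 to -3.08 in JJ012 and from -1.56 to -1.22 in 143B. With TPM the median gene of JJ012 shifted by 0.26, and 68.8% of the called genes were higher, against 51.4%. Between the controls, the median shifted by -0.29 with centring, -0.30 with TPM, -0.18 with TMM, -0.22 with size factors, -0.29 with the length trend removed and -0.19 with no filter, and 48.6%, 49.3%, 53.1%, 51.6%, 47.7% and 61.1% of called genes were higher, against 60.1%. The number of all genes called fell from 6036 to 3352 in JJ012, from 1801 to 547 in 143B and from 11626 to 6152 between the controls with a filter of 5 FPKM, which tests fewer genes, and to 2327 and 629 in JJ012 and 143B with a threshold of 1. In 143B it was 2948 with a pseudocount of 0.1 FPKM and 2733 with TPM, for which the cause was not tested. With TMM, an alternative added after seeing the data, the differences between the lines kept their direction and their side of 0. The intervals of these differences were not recomputed with the length trend removed. No paired analysis was possible because, within a line, each condition had 1 library, which also left no replicate to leave out. A fit of melatonin over both lines with line as a block, which leaves 1 residual degree of freedom, was not run. Depth limits CA8, CA3, CA1, CA4, CA5A, CA6 and CA7, which had 68 counts or fewer in every library. It also limits CA2 in JJ012 (25 and 27 counts) and, in 143B, CA11 (39 and 35), CA13 (74 and 67) and CA9 after melatonin (50).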

Other observations

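The KEGG names in the table place carbonic anhydrases in Nitrogen metabolism, together with enzymes of glutamate and glutamine. These were looked at after the values were seen. GLUD1, glutamate dehydrogenase, rose in JJ012 from 6.38 to 10.69 FPKM, with a log2 fold change of 0.66, and was at 13.27 and 12.36 FPKM in 143B. It has processed copies in the genome, so reads could be divided between them. Of 6 tested genes with this KEGG name outside the carbonic anhydrase family, 2 rose and 0 fell in JJ012, beside 19.6% and 18.6% of all tested genes. These 2 were GLUD1 and SHLD2, the latter with a log2 fold change of 0.94. The rest were CPS1, ARHGEF39, which overlaps CA9, and the pseudogenes CA5BP1 and GLUD1P3. The 6 are thus not all enzymes of glutamate and glutamine. With the length trend removed 1 rose and 2 fell, so the call of GLUD1 is uncertain. GLUL, glutamine synthetase, was at 0.36 and 0.28 FPKM in JJ012 and 5.53 and 5.47 FPKM in 143B. CPS1, which makes carbamoyl phosphate from bicarbonate and ammonia, was at 2.57 and 1.93 FPKM in JJ012 and 2.25 and 2.63 FPKM in 143B, under the threshold in both lines.

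GAPDH, which served as the reference gene of the study's RT-qPCR, was 2582 FPKM in the JJ012 control and 826.2 FPKM after melatonin, and 2389 and 2925 FPKM in 143B. The antisense gene CA3-AS1, which overlaps CA2 and CA3, had 29 and 17 counts in 143B and 3 and 5 counts in JJ012. In 143B these counts are close to the 36 and 25 counts of CA3, so the 143B values of CA3 are uncertain.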
